A study of Mus musculus with 48 samples.

Results

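The 36 genes described here encode proteins that make ribosomes in the nucleolus, and all 36 were found among the 20007 genes of a table of UMI counts (unique molecular identifiers, 1 per captured messenger RNA molecule) from sorted mouse spleen B lineage cells. They were taken as a given list of symbols. The list held 2 subunits of RNA polymerase I, 4 nucleolar scaffold and chaperone proteins, 8 core proteins of the small nucleolar ribonucleoproteins (snoRNPs), 10 assembly factors of the small ribosomal subunit, 11 of the large subunit and 1 helicase that acts in both pathways. All 16 mice had been immunized intraperitoneally with sheep red blood cells, an antigen that sets off germinal center (GC) reactions. The labels gave 8 mice a c-Rel transgene (c-RelTG, called transgenic), and the other 8 did not carry it (called control). Both genotypes carried 1 further allele, left out of this account. The protein c-Rel belongs to the NF-kB family of transcription factors. From each mouse came 1 library of naive B cells (IgD high, IgM low), 1 of GC B cells (B220 positive, IgD negative, CD38 low, CD95 high, GL7 positive) and 1 of plasma cells (B220 low, CD138 positive), each made from 1000 sorted cells. This gave 6 groups of 8 libraries. By their numbers in the labels, the controls were mice 1 to 4 and 9 to 12, and the carriers of the transgene mice 5 to 8 and 13 to 16. The sources used here do not give the age of the mice or the promoter of the transgene.

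Ribosomes are built from a long precursor rRNA that RNA polymerase I makes in the nucleolus. Box C/D snoRNPs methylate that precursor, box H/ACA snoRNPs turn some of its uridines into pseudouridine, and large sets of assembly factors cut it, fold it and load ribosomal proteins until the small and the large subunit can leave the nucleus. In the B lineage, cells of the germinal center grow and divide rapidly, while plasma cells have mostly stopped dividing and secrete antibody, and the transcription factor Myc is a known activator of many nucleolar genes.

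Libraries held 97993 to 794273 UMIs. Naive B cell libraries were the shallowest, at 108690 ± 7206 UMIs in controls (SD, n = 8), against 453596 ± 60965 in control GC B cells and 586920 ± 72202 in control plasma cells. In control plasma cells 50.3 ± 2.06% of UMIs came from immunoglobulin genes, and in control GC B cells 1.10 ± 0.162%. In control mice the labelled cell types stood highest for most of their listed markers. CPM are UMI counts scaled to a library total that is the same for all libraries. Fcer2a stood at 1401 CPM in control naive B cells and 108 in GC B cells. Bcl6 stood at 186 CPM in control GC B cells and 65.7 in naive B cells, and Sdc1 at 417 CPM in control plasma cells and 5.28 in GC B cells. Ighm, listed for naive B cells, went the other way, at 5556 CPM in control naive B cells and 149471 CPM in control plasma cells. T cell markers summed to at most 71.4 CPM in any library.

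Ncl (nucleolin) and Npm1 (nucleophosmin), abundant chaperones of the nucleolus, gave a large share of the signal. In control GC B cells Ncl ran from 1111 through a median of 1232 to 1387 CPM, and Npm1 from 975 through 1144 to 1333 CPM. On GRCm38 (GENCODE M21) Ncl (ENSMUSG00000026234) lies on chromosome 1 from 86344719 to 86359400 and Npm1 (ENSMUSG00000057113) on chromosome 11 from 33152287 to 33163206, both on the minus strand. Both together held 46.2 ± 1.73% of the UMIs of the 36 genes in control GC B cells, 40.0 ± 2.30% in naive B cells and 32.6 ± 1.92% in plasma cells (n = 8 mice each). At the other end stood Heatr1, a scaffold of early small subunit assembly, at 9.86 ± 3.65 CPM in control GC B cells, and Utp20, another early factor, at 14.8 ± 4.86 CPM. A UMI marks 1 molecule by its 3′ end whatever the length of the transcript, so these levels were not divided by gene length.

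**Figure D1:**
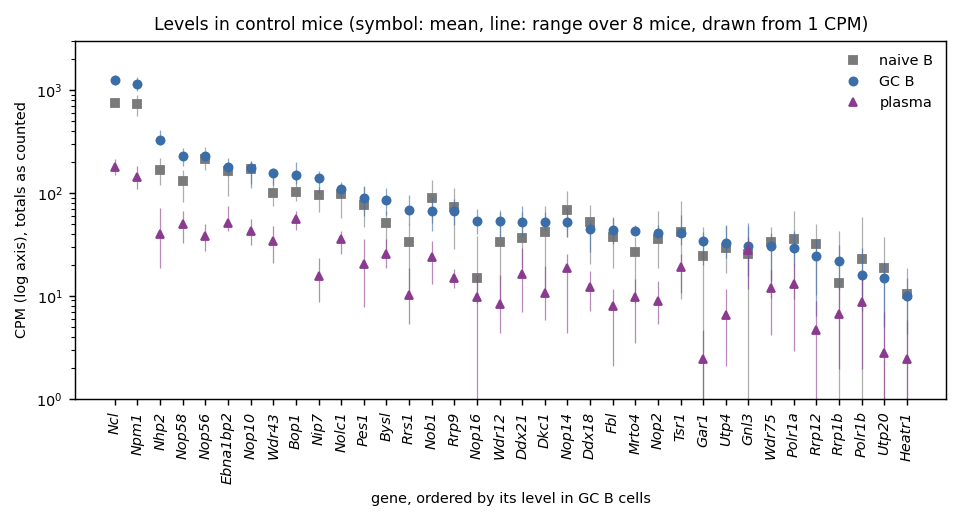
Mean CPM with totals as counted (log axis) of the 36 genes in control naive B cells, GC B cells and plasma cells, ordered by the GC level, with lines for the range over 8 mice. Ncl and Npm1 stand above 1000 CPM in GC B cells, and the plasma cell symbols lie below the other 2 populations for nearly all genes, with Gnl3 as the exception.

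As a share of all UMIs, the sum over the 36 genes stood highest in GC B cells and lowest in plasma cells. It took 0.366 ± 0.0263% of all UMIs in control naive B cells, 0.516 ± 0.0260% in control GC B cells and 0.0988 ± 0.0124% in control plasma cells (n = 8 each). With immunoglobulin genes taken out of the totals, the plasma cell share was 0.198 ± 0.0177% against 0.374 ± 0.0269% in naive B cells, so plasma cells stayed lowest on that scale as well. Counted as UMIs per library, naive B cells were lowest, at 399 ± 45.1 in control mice, against 578 ± 90.2 in plasma cells and 2352 ± 442 in GC B cells. In transgenic mice the shares were 0.380 ± 0.0316% in naive B cells, 0.653 ± 0.0921% in GC B cells and 0.112 ± 0.00846% in plasma cells. The lowest transgenic GC library, at 0.521%, lay inside the control range of 0.492% to 0.568%, and the highest reached 0.813%.

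**Figure D2:**
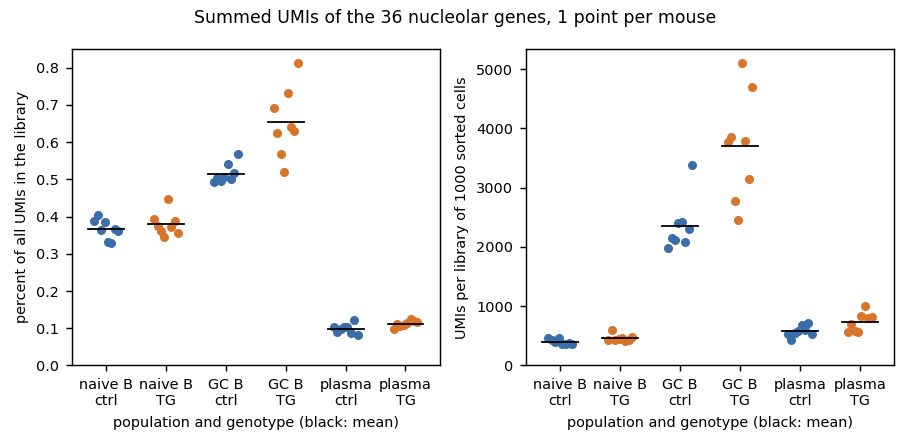
Summed UMIs of the 36 genes in each mouse (points; black lines are means), as percent of all UMIs of the library (left) and as UMIs per library of 1000 sorted cells (right), by population in control (ctrl) and transgenic (TG) mice. GC B cells stand highest on both scales, and the 8 transgenic GC libraries spread wider (0.521% to 0.813%) than the controls.

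In GC B cells 9 of the 36 genes were higher in transgenic mice than in controls and 0 were lower. Over all 6393 genes tested there, 3.58% were called higher and 4.10% lower (edgeR quasi-likelihood test, adjusted p under 0.05). Polr1b, Utp20 and Heatr1 had too few UMIs to be tested, and 33 genes were. Of these, 24 were not called, the median log2 fold change was 0.33 against -0.00 over all genes tested, and 19 had an unadjusted p under 0.05. The share of all genes tested with an unadjusted p under 0.05 is not given here. Whether 19 of 33 is particular to the list was therefore not tested. The 9 were the polymerase subunit gene Polr1a, the scaffold genes Nolc1, Ncl and Npm1, the box C/D gene Nop58, the box H/ACA gene Nhp2 and the large subunit genes Nop2, Ebna1bp2 and Bop1. None of the 9 separated the 2 groups of mice fully; 0.266% of all genes tested did so with the transgenic mice above.

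**Figure D3:**
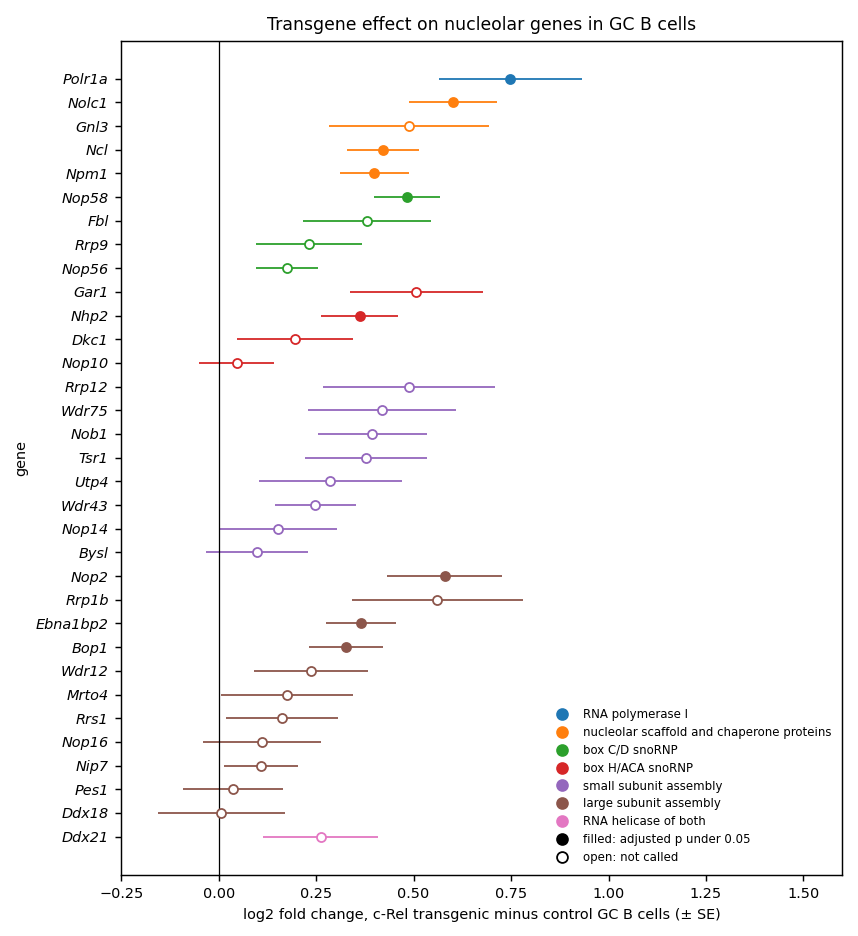
Log2 fold change (transgenic minus control, TMM scaled, ± SE) of the 33 genes tested in GC B cells, grouped and coloured by role; filled points have an adjusted p under 0.05. The filled points run from 0.33 (Bop1) to 0.75 (Polr1a), and the open points for Ddx18, Pes1 and Nop10 lie near 0.

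Polr1a, Nolc1, Nop2 and Nop58 had the largest fold changes of the 9, and the 150 bases of sequence before their RefSeq start sites (GRCm38.p6, all on the plus strand) are shown because these genes were called in the same comparison. They are chr6:71908903-71909052 for Polr1a, chr19:46075697-46075846 for Nolc1, chr6:125131733-125131882 for Nop2 and chr1:59684856-59685005 for Nop58, written 5′ to 3′, with the letters CACGTG (the E-box that Myc is known to bind) in capitals where present.
Polr1a: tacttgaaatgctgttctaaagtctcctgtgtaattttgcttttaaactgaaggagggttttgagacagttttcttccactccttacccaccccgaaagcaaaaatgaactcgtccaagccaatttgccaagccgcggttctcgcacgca
Nolc1: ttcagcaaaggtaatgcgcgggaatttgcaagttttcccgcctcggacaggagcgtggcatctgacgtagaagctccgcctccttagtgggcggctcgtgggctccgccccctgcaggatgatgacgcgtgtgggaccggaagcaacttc
Nop2: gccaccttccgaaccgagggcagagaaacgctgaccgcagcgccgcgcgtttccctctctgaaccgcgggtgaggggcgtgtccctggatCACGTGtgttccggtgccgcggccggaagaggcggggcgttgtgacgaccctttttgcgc
Nop58: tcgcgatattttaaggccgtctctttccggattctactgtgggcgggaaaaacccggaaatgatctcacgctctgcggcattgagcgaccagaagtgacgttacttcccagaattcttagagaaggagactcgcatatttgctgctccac
Of these 4 stretches, only that of Nop2 held CACGTG. A match of letters is a description of the sequence and shows no binding.

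Polr1a encodes the largest subunit of RNA polymerase I. It lies on chromosome 6 from 71909053 to 71984935 (ENSMUSG00000049553). It ran from 19.9 through a median of 27.7 to 42.5 CPM in control GC B cells (106 UMIs over 8 libraries), and from 24.4 through 50.6 to 63.9 CPM in transgenic ones (219 UMIs). It rose by 0.75 on the log2 scale (SE 0.18, edgeR adjusted p = 0.00576). All transgenic libraries but that of mouse 6 lay above the highest control. Polr1b, which forms the active center with it, had 57 and 85 UMIs in the control and transgenic groups, at 15.8 ± 6.31 and 18.7 ± 5.65 CPM, and was not tested.

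Among the scaffold proteins, Nolc1, which shuttles between nucleolus and Cajal bodies and binds snoRNPs, ran from 89.1 through 109 to 128 CPM in controls and from 111 through 169 to 218 CPM in transgenic mice. It rose by 0.60 (SE 0.11, adjusted p = 3.37e-04), with 1 transgenic mouse inside the control range. Ncl ran from 1111 through 1232 to 1387 CPM in controls and from 1287 through 1659 to 2187 CPM in transgenic mice, and rose by 0.42 (SE 0.09, adjusted p = 0.00830). Npm1 ran from 975 through 1144 to 1333 CPM against 1113 through 1475 to 1864 CPM and rose by 0.40 (SE 0.09, adjusted p = 0.00823). In all 3 genes the transgenic median lay above the highest control. The fourth scaffold gene, Gnl3 (nucleostemin, a nucleolar GTPase), differed by 0.49 on the log2 scale and was not called (adjusted p = 0.138).

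Box C/D snoRNPs gave 1 called gene of 4. Nop58, a core protein that holds the guide RNA, ran from 183 through 231 to 272 CPM in controls and from 263 through 300 to 415 CPM in transgenic mice. It rose by 0.48 (SE 0.08, adjusted p = 1.54e-04), and 1 control and 1 transgenic mouse crossed into the other group's range. Fbl (fibrillarin), the methyltransferase of these particles, ran from 31.7 through 41.8 to 58.3 CPM against 31.1 through 57.4 to 73.4 CPM, a log2 fold change of 0.38 that was not called (SE 0.16, adjusted p = 0.149). Their partners Nop56 and Rrp9, the latter specific to the U3 particle, stood at 0.17 and 0.23 and were not called either.

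Box H/ACA snoRNPs also gave 1 called gene of 4. Nhp2, which binds the guide RNA, ran from 294 through 312 to 407 CPM in controls and from 319 through 387 to 553 CPM in transgenic mice, and rose by 0.36 (SE 0.10, adjusted p = 0.0222). Gar1, which helps the particle turn over its substrate, had a larger log2 fold change of 0.51 at lower counts and was not called (SE 0.17, adjusted p = 0.0552). The pseudouridine synthase Dkc1 (dyskerin) stood at 0.20 and Nop10 at 0.05.

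Of the 11 large subunit genes, 3 were called. Nop2, an rRNA methyltransferase, ran from 35.3 through 40.3 to 49.2 CPM in controls and from 46.8 through 59.6 to 74.3 CPM in transgenic mice, and rose by 0.58 (SE 0.15, adjusted p = 0.00839). Ebna1bp2, an assembly factor of the early large subunit, ran from 145 through 171 to 217 CPM against 187 through 221 to 275 CPM and rose by 0.36 (SE 0.09, adjusted p = 0.00633). Bop1 ran from 122 through 143 to 201 CPM in controls and from 160 through 183 to 218 CPM in transgenic mice, and rose by 0.33 (SE 0.10, adjusted p = 0.0237). For Nop2 and Ebna1bp2 the transgenic median lay above the highest control, and for Bop1 and Nhp2 it did not. Bop1 works in 1 complex with Pes1 and Wdr12, and the other two stood at 0.04 and 0.24 and were not called. Rrp1b (0.56, adjusted p = 0.105) missed the threshold with a fold change near that of Nop2. The other 5 ran from 0.01 (the helicase gene Ddx18) through 0.11 (Nip7 and Nop16) and 0.16 (Rrs1) to 0.18 (Mrto4).

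None of the 10 small subunit genes was called by edgeR or DESeq2, and 8 were tested with edgeR. DESeq2 called the same 9 genes of the list as edgeR. The log2 fold changes of the 8 ran from 0.10 (Bysl, a late assembly factor) to 0.49 (Rrp12, an export factor), with a median of 0.33 and 5 unadjusted p under 0.05. Nob1, the nuclease that makes the mature end of the small subunit rRNA, came closest, with 66.2 ± 17.1 CPM in controls and 86.4 ± 16.2 CPM in transgenic mice (0.39, adjusted p = 0.0718). Wdr75, Utp4, Wdr43 and Nop14, factors of the early and middle steps, stood at 0.42, 0.29, 0.25 and 0.15, and Tsr1 at 0.38. The helicase gene Ddx21 stood at 0.26 and was not called.

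**Figure D4:**
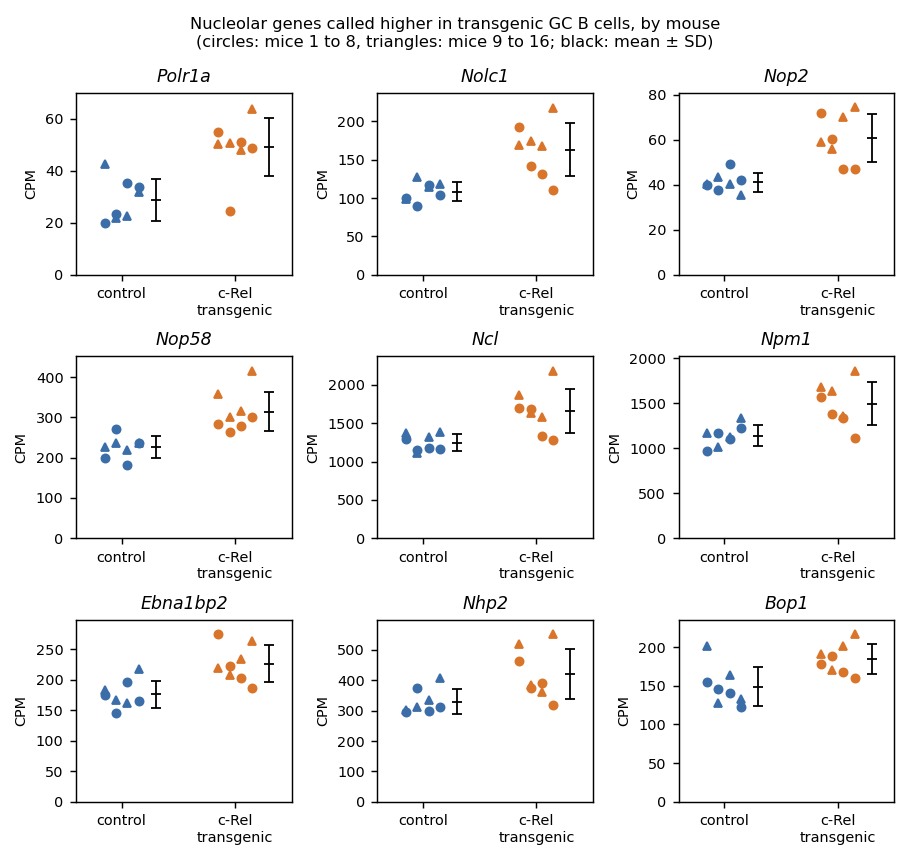
CPM with totals as counted in each mouse for the 9 genes called higher in transgenic GC B cells (circles are mice 1 to 8, triangles mice 9 to 16; black marks are mean ± SD, n = 8 per genotype). In each panel the transgenic points lie higher on average and reach into the control range; the transgenic mouse far below the others in the Polr1a panel is mouse 6, at 24.4 CPM.

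By their numbers the mice were split into 1 to 8 and 9 to 16, each set with 4 mice per genotype. The labels do not say whether these sets were handled apart. Within mice 1 to 8 only Ncl was called (0.33, adjusted p = 0.0391), and 30 of 33 log2 fold changes were above 0. Within mice 9 to 16, 7 genes were called, namely Polr1a, Ncl, Npm1, Nolc1, Nop58, Nop2 and, outside the 9, Nob1 (0.74, adjusted p = 0.0176). The shares of all genes called in these 2 fits are not given here. Whether the counts of 1 and 7 are particular to the list was therefore not tested. Nop58 stood at 0.33 in mice 1 to 8 (adjusted p = 0.187) and 0.61 in mice 9 to 16 (adjusted p = 7.67e-04, edgeR). Npm1 stood at 0.27 (adjusted p = 0.141) and 0.51 (adjusted p = 8.92e-04, edgeR) in the same order. The difference between the 2 sets of mice was not tested. Leaving out single libraries, 7 of the 9 were called in all 16 fits. Nhp2 lost its call without control mouse 1 (adjusted p = 0.0510), 3 (0.0512), 9 (0.0507) or 10 (0.0513) or transgenic mouse 5 (0.0501), and Bop1 without control mouse 4 (0.0626) or 10 (0.0543) or transgenic mouse 16 (0.0665).

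GC libraries of transgenic mice also held more UMIs in all, 560382 ± 75238 against 453596 ± 60965 in controls. With counts thinned to the smallest GC total, 8 genes were called and Bop1 was not (adjusted p = 0.0626). The share of all genes called in that fit is not given here. Counted as UMIs per library of 1000 cells, all 36 genes stood higher in transgenic GC B cells, with a median ratio of 1.5. Over all genes with enough UMIs to give a ratio the median was 1.22, and the ratio of library totals was 1.24. The share of all genes with a ratio above 1 is not given here. In bulk samples such as these, fewer cells of a type and less RNA per cell cannot be told apart. The summed level of 7 GC markers was 2007 to 2286 CPM in controls and 1851 to 2225 CPM in transgenic mice, and the proliferation marker Mki67 stood at 261 ± 48.9 and 271 ± 33.2 CPM. Markers of plasma cells summed to 1520 to 2031 CPM in controls and 1595 to 3137 CPM in transgenic mice, and those of naive B cells to 2097 to 3833 and 1439 to 3675 CPM. Jchain made up most of the plasma cell sums, at 1358 ± 146 and 1818 ± 543 CPM. Ighm made up most of the naive B cell sums, at 2613 ± 631 and 2396 ± 714 CPM. The part of both sets of markers in the result was not tested. T cell markers, of which 3 of 7 were at 0 in each genotype, summed to at most 7.24 CPM. Erythroid markers summed to 24.6 to 366 CPM in controls and 12.8 to 766 CPM in transgenic mice. Dendritic cell markers, mostly Flt3, summed to 31.3 to 65.6 and 31.9 to 91.5 CPM. The part of these markers in the result was not tested either.

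In naive B cells no gene of the list was called between genotypes, where 1.13% of all 2131 genes tested were (edgeR). At this depth 11 of the 36 could be tested; 3 had an unadjusted p under 0.05 and DESeq2 also called 0. Ncl ran from 676 through 713 to 837 CPM in controls and from 687 through 866 to 1150 CPM in transgenic mice (log2 fold change 0.24, SE 0.08, adjusted p = 0.170). Npm1 ran from 563 through 695 to 892 CPM against 582 through 746 to 1005 CPM (0.06, SE 0.09, adjusted p = 0.874). Fbl and Polr1a, at 32 and 31 UMIs in controls, were not tested. Markers of plasma cells summed to 1596 ± 739 CPM in control and 2999 ± 1461 CPM in transgenic naive libraries, which also enter the comparisons between populations. Jchain made up most of both sums, at 1124 ± 668 and 2309 ± 1294 CPM. Xbp1 stood at 339 ± 86.2 and 521 ± 170 CPM, and Sdc1 at 26.4 ± 20.1 and 25.4 ± 15.7 CPM. The part of these markers in these results was not tested.

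In plasma cells no gene of the list was called either, where 6.35% of all 4538 genes tested were (edgeR). Of the 36, 17 could be tested, 4 had an unadjusted p under 0.05, and DESeq2 called 0. Ncl ran from 150 through 177 to 213 CPM in controls and from 184 through 219 to 244 CPM in transgenic mice (0.20, SE 0.08, adjusted p = 0.166). Npm1 ran from 110 through 138 to 183 CPM against 113 through 150 to 171 CPM (-0.03, SE 0.10, adjusted p = 0.921). Bop1, at 56.3 ± 7.30 and 74.2 ± 13.7 CPM, differed by 0.32 on the log2 scale (adjusted p = 0.117); with library totals as counted in place of TMM it was called (0.41, adjusted p = 0.0441). Fbl, at 7.99 ± 3.35 and 6.73 ± 2.67 CPM, and Polr1a, at 13.1 ± 5.37 and 14.2 ± 6.10 CPM, were not tested. Beside these values, Mki67 stood at 21.2 ± 4.72 CPM in control and 47.7 ± 24.4 CPM in transgenic plasma cells, and T cell markers summed to 31.8 to 60.8 and 10.4 to 47.5 CPM; their part in the result was not tested.

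The difference of the genotype effect between populations was tested for 35 genes in a fit of all 48 libraries. None was called for GC against naive B cells, plasma against naive B cells or plasma against GC B cells (edgeR), where 0.129%, 1.16% and 1.58% of 7744 genes were; 5, 0 and 6 of the 35 had an unadjusted p under 0.05, and DESeq2 called 0 of the 3, 25 and 30 genes to which it gave an adjusted p. In these fits, which take the libraries of 1 mouse as independent, the effects in GC B cells were thus not shown to differ from those in the other 2 populations. Npm1 came closest, with an effect 0.44 lower in plasma cells than in GC B cells (log2 difference -0.44, SE 0.13, adjusted p = 0.0674). With the mouse as a replicate block, which the labels allow because the 3 libraries of a number come from 1 animal, the same difference was called (-0.44, adjusted p = 0.0117).

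Between populations, GC B cells were first set against naive B cells of the same genotype. In control mice 10 of 32 genes tested were higher in GC B cells and 1 was lower, where 26.6% of 6503 genes were called higher and 24.7% lower, so the share of genes called higher (10 of 32) was near that of all genes. The median log2 fold change of the 32 was 0.19 against 0.00 over all genes. In transgenic mice 20 of 33 were higher and 0 lower, where 27.5% and 26.5% of 7016 genes were, and the median was 0.54 against -0.01. The 2 genotypes share no library in these fits, and whether they differ is the interaction given above. The expression filter can admit a gene to these fits through its GC libraries alone, for the list as for all genes.

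The genes that rose in control GC B cells by the most were Nop16, Rrs1, Nhp2 and Nop58. Nop16, a large subunit factor, ran from 8.45 through 9.84 to 38.0 CPM in naive B cells and from 39.9 through 50.4 to 70.0 CPM in GC B cells, and rose by 1.74 (SE 0.36, adjusted p = 2.18e-05). Rrs1, which helps to load an early part of the large subunit, ran from 9.51 through 35.5 to 50.01 CPM against 48.6 through 65.6 to 96.2 CPM (0.96, SE 0.27, adjusted p = 0.00155). Nhp2 ran from 120 through 177 to 218 CPM against 294 through 312 to 407 CPM and rose by 0.90 (SE 0.14, adjusted p = 3.25e-08). Nop58 rose by 0.71 (SE 0.15, adjusted p = 1.73e-05), Ncl by 0.68 (SE 0.08, adjusted p = 7.73e-14) and Npm1 by 0.58 (SE 0.08, adjusted p = 1.19e-09). In TMM-scaled CPM all GC libraries lay above all naive ones for Nop16, Nhp2, Nop58, Ncl and Npm1, and for 12.5% of all genes tested. The other genes called higher were Bysl (0.68), Wdr43 (0.54), Nip7 (0.47) and Bop1 (0.46), and in each the groups overlapped. Nob1 was the gene that fell (-0.52, SE 0.21, adjusted p = 0.0283), and it was not called with DESeq2, without an expression filter or with totals as counted.

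Fbl and Polr1a were not called between control naive and GC B cells, at 37.0 ± 12.6 against 43.6 ± 10.3 CPM (0.17, SE 0.28, adjusted p = 0.649) and 35.3 ± 17.6 against 28.9 ± 8.12 CPM (-0.36, SE 0.32, adjusted p = 0.364). In transgenic mice Fbl rose by 0.73 (SE 0.28, adjusted p = 0.0204), and Polr1a stood at 0.49 and was not called (adjusted p = 0.150). The largest rises in transgenic mice were those of Gar1 (1.54, SE 0.35, adjusted p = 9.42e-05), Nop16 (1.54, SE 0.31, adjusted p = 1.51e-05), Mrto4, a stalk assembly factor (1.34, SE 0.34, adjusted p = 4.36e-04), and Rrs1 (1.31, SE 0.26, adjusted p = 1.07e-05). Gar1 ran from 0 through 14.3 to 29.3 CPM in transgenic naive B cells and from 34.0 through 46.6 to 63.9 CPM in GC B cells. Ncl rose by 0.84 and Npm1 by 0.89 there. In TMM-scaled CPM all GC libraries lay above all naive ones for 7 genes, Ncl, Npm1, Nop58, Nhp2, Gar1, Rrs1 and Nip7, and for 13.5% of all genes tested.

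**Figure D5:**
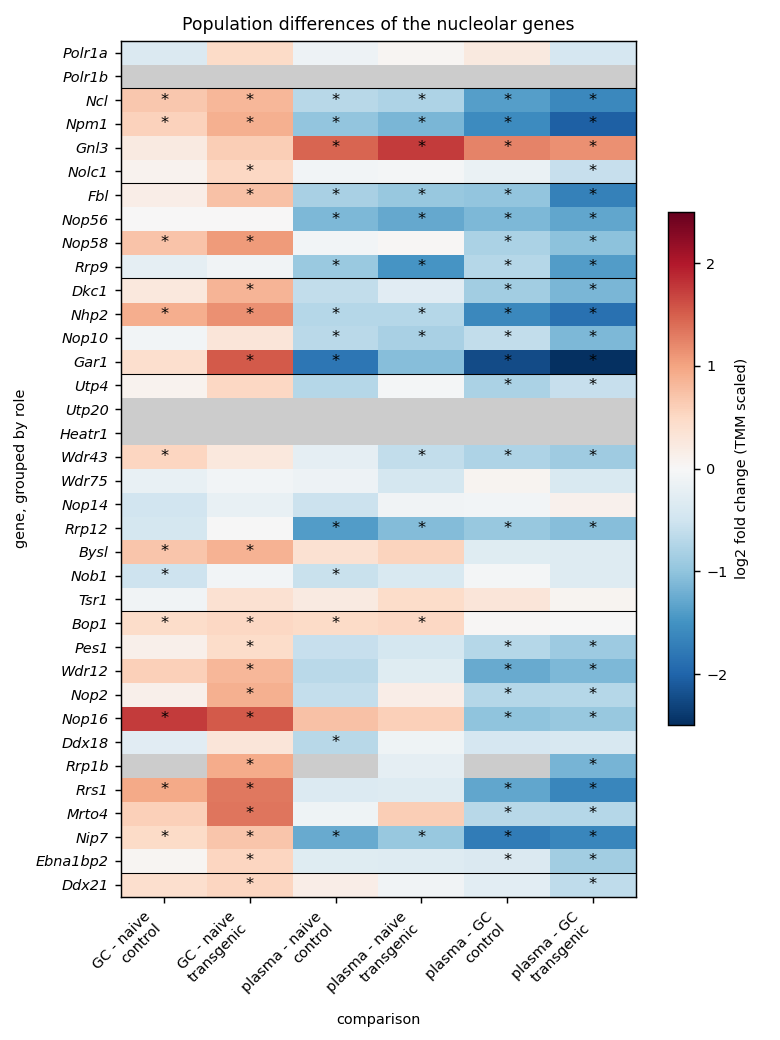
Log2 fold change between populations (TMM scaled) for the 36 genes in rows, grouped by role, and the 6 comparisons in columns; red is higher and blue lower in the first named population, stars mark an adjusted p under 0.05, and grey cells were not tested. The plasma against GC columns are blue for most genes, with 21 and 24 genes lower, and the Gnl3 row is red in all 4 plasma cell columns.

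Plasma cells held less than GC B cells of most of the list on the TMM scale. Against GC B cells of control mice 21 of 32 genes were lower and 1 higher, where 35.4% of all genes tested were lower and 30.4% higher, and the median log2 fold change was -0.72 against -0.09 over all genes. In transgenic mice 24 of 33 were lower and 1 higher (all genes: 37.6% and 31.2%), with a median of -0.92 against -0.11. Against naive B cells 12 of 32 were lower and 2 higher in control mice (all genes: 25.4% and 27.1%), and 10 of 33 lower and 2 higher in transgenic mice (all genes: 26.9% and 28.0%). The naive comparisons and the GC comparisons share the plasma libraries of a genotype. The expression filter can admit a gene to these fits through its libraries of 1 population alone, such as GC B cells. In fits of 1 population, 11 of the 36 genes passed in naive B cells and 17 in plasma cells. Genes that passed through their GC level alone may thus enter the counts of genes lower in plasma cells. In TMM-scaled CPM, plasma cells lay fully below GC B cells for 9 genes in control and 14 in transgenic mice (18.5% and 19.9% of all genes), and fully below naive B cells for 4 in each (9.73% and 11.4%).

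These fold changes depend on the scaling. With totals as counted in place of TMM, the median of all genes shifted to -1.37 against naive and -1.54 against GC B cells in control mice. On that scale 30 of 32 genes were lower against naive B cells, where 77.9% of all genes tested were lower and 7.30% higher. Against GC B cells 31 of 32 were lower, where 83.3% of all genes were lower and 9.67% higher. None of the 32 was called higher in either comparison on that scale (edgeR). Counted as UMIs per library of 1000 cells, control plasma cells held a median of 0.292 times the UMIs of GC B cells over the 36 genes. They held a median of 1.41 times those of naive B cells. Over all genes with enough UMIs to give a ratio, the medians were 0.490 and 2.22 in the same order. On both the TMM scale and the scale of UMIs per library the median of the list lay below that of the genes it was set against.

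Gar1 had the largest fall from GC to plasma cells, 2.23 on the log2 scale in control mice (-2.23, SE 0.37, adjusted p = 5.23e-08). Its TMM-scaled level ran from 14.6 through 26.7 to 31.2 CPM in GC B cells and from 0 through 4.85 to 10.2 CPM in plasma cells. Its counts were 15.5 ± 5.18 UMIs per library in control GC B cells and 1.5 ± 1.20 in plasma cells. Nip7, a large subunit factor that binds rRNA, ran from 73.2 through 106 to 122 against 18 through 29.5 to 46.2 TMM-scaled CPM (-1.74, SE 0.17, adjusted p = 1.64e-17). Nhp2 (-1.62, SE 0.13, adjusted p = 5.60e-21), Npm1 (-1.58, SE 0.08, adjusted p = 2.08e-36) and Ncl (-1.37, SE 0.07, adjusted p = 1.59e-35) did not overlap between the 2 populations either, and Fbl fell by 0.98 (SE 0.25, adjusted p = 3.90e-04). In transgenic mice Gar1 fell by 2.59, Npm1 by 2.03, Nhp2 by 1.86 and Fbl by 1.69, all with plasma cells fully below. Polr1a was not called in plasma against GC B cells in control (0.24, adjusted p = 0.417) or transgenic mice (-0.43, adjusted p = 0.0727), but with library totals as counted in place of TMM it was called lower in both (-1.20, adjusted p = 4.91e-06, and -1.75, adjusted p = 3.16e-12, edgeR).

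Against naive B cells of control mice the largest falls were those of Gar1 (-1.81, SE 0.52, adjusted p = 0.00176), Rrp12 (-1.39, SE 0.43, adjusted p = 0.00433), Nip7 (-1.27, SE 0.23, adjusted p = 7.12e-07) and Nop56 (-1.13, SE 0.15, adjusted p = 8.60e-11). The counts behind Gar1 and Rrp12 were low. Gar1 held 1.5 ± 1.20 UMIs per library in control plasma cells and 2.625 ± 1.69 in naive B cells. Rrp12 held 2.75 ± 1.49 and 3.5 ± 1.51 in the same order. Nop56 ran from 125 through 176 to 216 TMM-scaled CPM in naive B cells and from 53.8 through 73.6 to 92.4 in plasma cells, with no overlap. Npm1 fell by 1.0 (SE 0.09, adjusted p = 1.34e-17), Ncl by 0.69 (SE 0.08, adjusted p = 3.51e-12) and Fbl by 0.81 (SE 0.35, adjusted p = 0.0439), while Polr1a was not called (-0.12, adjusted p = 0.790). In transgenic mice the 4 largest falls were those of Rrp9 (-1.48, SE 0.26, adjusted p = 3.84e-07), Nop56 (-1.28), Npm1 (-1.14) and Rrp12 (-1.08), and Polr1a again was not called (0.06, adjusted p = 0.899). Rrp12 held 4.25 ± 2.05 UMIs per library in transgenic plasma cells and 4 ± 2.98 in naive B cells. Among the core proteins of box C/D particles, Nop56 and Nop58 went apart: Nop58 was not called in plasma against naive B cells of control (-0.08, adjusted p = 0.726) or transgenic mice (0.02, adjusted p = 0.921).

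Gnl3 was the gene of the list called higher in plasma cells than in both other populations, on the TMM scale. Its TMM-scaled level ran from 0 through 23.2 to 36.8 CPM in control naive B cells, from 11.6 through 21 to 37.2 in GC B cells and from 23.9 through 59.9 to 70.0 in plasma cells. It rose by 1.45 against naive (SE 0.33, adjusted p = 1.16e-04) and by 1.23 against GC B cells (SE 0.22, adjusted p = 5.68e-07). In transgenic mice it rose by 1.76 (SE 0.27, adjusted p = 2.51e-08) and 1.15 (SE 0.17, adjusted p = 2.52e-09), and its plasma libraries lay fully above the naive ones, where 14.2% of all genes did. With totals as counted the GC comparisons turned to -0.21 (adjusted p = 0.358) and -0.18 (adjusted p = 0.312). By UMIs per library of 1000 cells Gnl3 held 16 ± 4.60 in control plasma cells, 14.1 ± 6.77 in GC B cells and 2.75 ± 1.98 in naive B cells, the only gene of the 36 whose plasma to GC ratio was above 1 (1.13). Gnl3 (ENSMUSG00000042354, chromosome 14, 31012433 to 31019152) overlaps Pbrm1 on the opposite strand, and the sources used here do not say which strand was counted.

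Bop1 was the other gene called higher in plasma than in naive B cells. Its TMM-scaled level ran from 62.5 through 73.8 to 113 CPM in control naive B cells and from 94.8 through 112 to 131 CPM in plasma cells, and it rose by 0.49 (SE 0.17, adjusted p = 0.0131) and in transgenic mice by 0.52 (SE 0.15, adjusted p = 0.00271). With totals as counted it turned to -0.90 and -0.72. Bop1 overlaps Mroh1 and Scx on the opposite strand.

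A wider list of 119 other ribosome biogenesis genes in the table, which leaves out the 36, was counted for comparison. In GC B cells 102 were tested, 8 were higher in transgenic mice and 0 lower (all genes: 3.58% and 4.10%), with a median of 0.17. Of those, 6 were small subunit genes, among them Nat10, which acetylates rRNA (17.5 CPM in controls and 29.7 in transgenic mice, 0.75, adjusted p = 0.0386), Rcl1 (49.0 and 75.6 CPM, 0.62, adjusted p = 0.00593), and Pno1, a late small subunit factor (126 and 177 CPM, 0.49, adjusted p = 0.00106). The large subunit genes Rsl1d1 (158 and 232 CPM, 0.56, adjusted p = 2.51e-04) and Ftsj3 (71.5 and 103 CPM, 0.53, adjusted p = 0.00766) were called too. The 11 other genes of RNA polymerase I and its factors and the 13 of the RNA exosome that were tested gave 0 calls with edgeR. Among all genes tested there, 3.58% were called higher and 4.10% lower. At an unadjusted p under 0.05 (edgeR) were 1 of the 11 and 3 of the 13. In naive B cells 0 of 28 were called with edgeR, where 1.13% of all genes tested were, and 2 had an unadjusted p under 0.05. In plasma cells 0 of 66 were higher and 1 was lower (Ddx54, -0.44, edgeR adjusted p = 0.00742), where 6.35% of all genes tested were called in either direction.

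Between populations, control GC against naive B cells gave 20 higher and 10 lower of 98 genes of the wider list (all genes: 26.6% and 24.7%), with Polr1d, a subunit shared by polymerases I and III, rising from 360 to 672 CPM (0.83, adjusted p = 5.56e-14) and Las1l, a nuclease of large subunit maturation, falling from 98.7 to 54.2 CPM (-0.93, adjusted p = 2.60e-05). Control plasma against GC B cells gave 12 higher and 37 lower of 98 (all genes: 30.4% and 35.4%), with Tcof1, which links polymerase I to the snoRNPs, lowered by 1.44 (-1.44, adjusted p = 7.53e-23), the exosome gene Exosc8 at -2.09 (adjusted p = 2.30e-16) and Las1l at 0.84 (adjusted p = 2.58e-06). Control plasma against naive B cells gave 4 higher and 20 lower of 98 (all genes: 27.1% and 25.4%). Whether the wider list and the 36 genes differ was not tested.

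Myc, which encodes a known activator of nucleolar genes, stood in control mice at 149 ± 44.6 CPM in naive B cells, 72.2 ± 21.1 in GC B cells and 14.9 ± 8.73 in plasma cells. It was lower in GC than in naive B cells (-1.08, adjusted p = 1.17e-05). In that comparison, of 32 genes of the list tested, 10 were higher, 1 was lower and 21 were not called. Over all genes tested there, 26.6% were called higher and 24.7% lower. Whether Myc has a part in the levels of the list was not tested. In transgenic mice Myc stood at 133 ± 41.1, 127 ± 30.8 and 13.7 ± 6.26 CPM, and GC and naive B cells were not called different (-0.18, adjusted p = 0.391). Between genotypes Myc was higher in transgenic GC B cells (0.81, adjusted p = 0.00144) and was not called in naive B cells (-0.11, adjusted p = 0.913). Its interaction between GC and naive B cells was not called (0.92, adjusted p = 0.232).

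The promoters were searched for 2 sets of letters on both strands, CACGTG (the E-box) and an NF-kB site (GGGA, then any 2 bases, then TTCC), in windows of 250 bases before to 50 after the start site from RefSeq (GRCm38.p6). A promoter was matched for 31 of the 36 genes, 34 promoters in all; Fbl, Npm1, Rrs1, Bop1 and Rrp12 were not matched. CACGTG was found in 6 of the 34 (17.6%), against 7.15% of all 32851 promoters and 10.7% of the 6068 promoters of genes tested in GC B cells. The NF-kB site was found in 1 of 34 (2.94%, that of Dkc1), against 1.47% and 1.57%. The share of G and C bases in the 34 windows had a median of 57.2%, against 52.7% of all promoters and 61.3% of those of genes tested. Of the 6 genes with CACGTG, Nop2 was called in GC B cells between genotypes, Utp20 was not tested and the other 4 were not called. The 30 bases around the E-box are shown for the 5 genes other than Nop2, to be set beside the Nop2 sequence above, at chr11:3963965-3963994 (Pes1), chr11:74898092-74898121 (Tsr1), chr8:106893643-106893672 (Utp4), chr10:88826765-88826794 (Utp20, minus strand) and chr17:71616220-71616249 (Wdr43), the others on the plus strand, written 5′ to 3′ with CACGTG in capitals.
Pes1: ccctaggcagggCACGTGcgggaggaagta
Tsr1: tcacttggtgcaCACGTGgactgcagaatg
Utp4: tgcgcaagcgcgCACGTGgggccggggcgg
Utp20: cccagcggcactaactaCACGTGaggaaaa
Wdr43: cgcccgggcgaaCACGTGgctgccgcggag
In all 5 the E-box lay after the RefSeq start site, beginning at base 3 of the transcript in Pes1, 16 in Utp4, 18 in Wdr43, 25 in Tsr1 and 38 in Utp20, while in Nop2 it began 60 bases before the start site.

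The genes also share a feature of structure. Of the 36, 7 hold annotated snoRNA genes within their borders (GENCODE M21), 21 snoRNAs in all, against 222 of 14068 protein-coding genes of the table (19.4% against 1.58%). They are Nop56 with 5, Nop58 with 4, Ncl, Gnl3 and Wdr43 with 3 each, Tsr1 with 2 and Dkc1 with 1. snoRNAs carry no poly(A) tail, and these libraries are not made to count them. Besides, 12 of the 36 overlap a protein-coding gene on the opposite strand, among them Nhp2 (Rmnd5b), Nop56 (Idh3b), Rrp9 (Parp3) and Bysl (Ccnd3), and reads of such pairs cannot be told apart if strand was not used in counting. Of the 7 host genes, Ncl and Nop58 were called in GC B cells between genotypes.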

How the data were processed

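Libraries were prepared as bulk SCRB-seq from 1000 sorted cells each, per the labels' protocols. The authors deposited 1 table of UMI counts per Ensembl gene, and the submitters' processing notes name STAR and GRCm38.p5. The sources used here do not give the annotation, the collapsing of UMIs or the counting strand. Of its 20007 genes, 19701 received a symbol and coordinates from GENCODE M21, and the 306 others held 0.424% of UMIs. The counts were tested as deposited with edgeR 4.0.16 in R 4.3.3 (robust quasi-likelihood fit, TMM scaling, filterByExpr, Benjamini-Hochberg threshold 0.05 over all genes tested). Genotypes were compared within a population, populations within a genotype, and genotype effects between populations in 1 fit of all 48 libraries. Adjusted p values are from edgeR unless DESeq2 1.42.0 is named, and SE is the log2 fold change divided by the root of the F statistic. Counts of genes with an unadjusted p under 0.05 come without the share over all genes, in every comparison. They are therefore not read as a result about a list. CPM uses library totals as counted unless TMM-scaled is written; errors are SD over 8 mice. Totals ranged from 97993 to 794273 UMIs, which left the rarer genes untested in naive B cells. For genes with at least 80 UMIs in a group, the median variance between mice was 0.764 to 1.63 times that of counting alone.

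The members and lists were chosen with earlier results of these data known, so no test was made of the list as a whole. Values in full are given for up to 6 called genes per direction in a genotype comparison and 4 in a population comparison, those with the largest fold change, and for Ncl, Npm1, Fbl, Polr1a and Polr1b; other genes were named after their values were seen. Of the 121 listed other ribosome biogenesis genes 119 were in the table, and up to 5 per direction were named. Libraries of 1 mouse number come from the same animal, so the mouse was used as a block in an alternative fit; the correlation of their deviations from the group means had medians of 0.0167 (GC and naive), 0.0190 (plasma and naive) and 0.0350 (plasma and GC). Other alternatives were another scaling, DESeq2, no expression filter, no immunoglobulin genes, mice 1 to 8 and 9 to 16 apart, a term for Y-linked expression and each library left out. Fits with totals as counted and counts thinned to the smallest total of a population were chosen after seeing the data. The fits were tested on simulated counts.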

Additional observations from a re-analysis of the deposited data

Results flagged for a closer look

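For each of the 36 genes and 6 groups, the highest and the lowest mouse were set against the other 7, and 10 of the 216 checks found a mouse whose gap to its nearest neighbour was above 0.526 of the range of the group. Chance alone gives such a mouse in about 1 in 20 groups, and 10 of 216 is near that share. In GC B cells, Polr1a stood at 24.4 CPM in transgenic mouse 6 (15 UMIs; next mouse 47.9 CPM), and it was called between genotypes with and without that library. Wdr75 stood at 14.1 CPM in control mouse 3 (6 UMIs; next 29) and at 69.1 CPM in transgenic mouse 16 (next 46.0), and Rrp12 at 57.9 CPM in transgenic mouse 15 (next 37.4). In plasma cells, Nop14 stood at 4.33 CPM in control mouse 10 (3 UMIs; next 17.5) and Bop1 at 104 CPM in transgenic mouse 6 (next 77.4). In naive B cells, the counts behind these values were 1 to 7 UMIs: Nop16 stood at 38.0 CPM in control mouse 11 (next 18.5) and at 43.8 CPM in transgenic mouse 6 (next 22.0), Rrp1b at 42.2 CPM in control mouse 1 (next 18.9) and Mrto4 at 8.45 CPM in control mouse 1 (next 25).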

How the results depend on the processing

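The 9 genes called higher in transgenic GC B cells were the same 9 with size factors of the DESeq2 type, DESeq2, no expression filter, no immunoglobulin genes, totals as counted, a term for Y-linked expression and 1 fit of all 48 libraries. Counts thinned to the smallest GC total gave 8, mice 9 to 16 gave 7 (6 of them among the 9) and mice 1 to 8 gave 1; fewer mice were tested there. Leaving out 1 library gave 7 to 11 calls in GC B cells and 0 in naive B cells and in plasma cells. In plasma cells totals as counted gave 1 call between genotypes (Bop1). The shares of all genes called in these alternative fits are not given here. Whether the counts are particular to the list was therefore not tested.

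With the mouse as a replicate block, 11, 15 and 22 genes were called in control mice (GC against naive, plasma against naive, plasma against GC; 11, 14 and 22 without it) and 18, 12 and 25 in transgenic mice (20, 12 and 25 without it). The block changed the call of Pes1 in 2 comparisons and of Ddx21 in 1, and gave 1 call, Npm1, for the genotype effect in plasma against GC B cells. That difference was also called without an expression filter (1 gene, adjusted p = 0.0468). For the fits with a block and without a filter, the shares of all genes called are not given here.

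For plasma against naive B cells, totals as counted gave 30 calls in each genotype. Counts thinned to the smallest library total, with 11 genes tested, gave 5, 5 and 5 calls in control mice and 6, 6 and 8 in transgenic mice, in the same order of comparisons. The shares of all genes called are not given for the thinned counts, nor for totals as counted in transgenic mice.

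Signs turned as follows. With totals as counted, Bop1 in plasma against naive B cells came to -0.90 and -0.72 (control and transgenic), Gnl3 in plasma against GC B cells to -0.21 and -0.18, Polr1a to -1.20 (plasma against GC, control) and -1.17 (plasma against naive, transgenic). The difference of genotype effects between plasma and naive B cells came to 0.0542 for Ncl, 0.000506 for Npm1, 0.0123 for Fbl and 0.11 for Polr1b with totals as counted, and to 0.0145 for Ncl and 0.14 for Npm1 with thinned counts. The genotype difference of Npm1, not called in any of these fits, came to -0.20 in naive B cells of mice 1 to 8, and in plasma cells to 0.00425 without a filter, 0.0569 with totals as counted and 0.000803 with thinned counts; leaving out 1 library gave -0.0630 to 0.0174, above 0 without mouse 5, 7, 9 or 11. The cause was not tested. Naive B cells, with the fewest UMIs, left 25 of the 36 genes untested between genotypes.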
